A study of Mus musculus with 2 samples.

Results

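The 6 genes described here are the mouse let-7 family genes whose mature microRNA comes from a single locus: Mirlet7b, Mirlet7d, Mirlet7e, Mirlet7g, Mirlet7i and Mir98. They were taken by gene symbol, with no measured value, from the 2202 microRNA genes for which reads had been counted. The samples were hearts of female B6CASTF1/J mice, the hybrid offspring of C57BL/6J and CAST/EiJ parents, at 2 months of age, with no treatment named. The RNA was read as short fragments in the microRNA size range. There was 1 group of 2 biological replicates and no contrasting condition, so the data give levels and the distance between 2 libraries. The hearts carry separate numbers in the labels while the donor label is identical for the pair, so the spread between the libraries may be partly technical.

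let-7 was found in the worm Caenorhabditis elegans as a gene that times the passage from larval to adult cells. A mature let-7 guides the Argonaute protein to messages that pair with its seed, the bases just inside its 5′ end, and lowers their output. Known targets in mammals include growth and fetal genes such as Lin28a, Hmga2 and members of the Ras and Igf2bp families. The RNA-binding protein LIN28 in turn blocks the processing of let-7 precursors in embryonic cells, and mature let-7 builds up as tissues such as the heart leave fetal life.

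The mature 5p sequences (the arm at the 5′ side of the hairpin) are shown because the members differ from each other in these bases. They were taken from RefSeq for assembly GRCm38.p6, which held all 6 members. Capitals mark the seed, bases 2 to 8 from the 5′ end, and all 6 genes share it.
Mirlet7i: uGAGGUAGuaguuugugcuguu
Mirlet7g: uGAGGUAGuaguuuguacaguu
Mirlet7d: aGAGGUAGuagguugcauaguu
Mirlet7b: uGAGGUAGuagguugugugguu
Mirlet7e: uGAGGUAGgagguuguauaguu
Mir98: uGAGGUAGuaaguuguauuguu
For comparison, the let-7a sequence, which is encoded at more than 1 locus, is shown with the same marking.
let-7a: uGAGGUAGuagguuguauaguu

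Of 1679 annotated mature names, 11 carry this seed, and apart from the members these are let-7a, let-7c, let-7f, let-7k and miR-1961. Against let-7a, with positions counted from 1 at the 5′ end, let-7e differs by U9G, let-7b by A17G and A19G, and let-7d by U1A and U16C. The miR-98 sequence differs from let-7a by G11A and A19U, let-7g by G12U and U18C, and let-7i by G12U, A17G, U18C and A19U. Any 2 members differ at 2 to 6 bases, with let-7g and let-7i the closest pair and let-7d and let-7i the most distant. Among let-7a, let-7c and let-7f, the nearest sequences are 1 base away, let-7c from let-7b and let-7a from let-7e. The longer let-7j differs from let-7i by G8U over the bases they share. None of the 6 mature 5p sequences occurred at another locus among the annotated GENCODE M21 transcripts on either strand, and a genome sequence was not used here. The longest exact stretch shared between a 5p sequence and a hairpin elsewhere ran from 10 bases for Mir98 to 17 bases for Mirlet7g. The stretch of Mirlet7g is shared with Mir3962, which had 2 counts in replicate 1 and 1 in replicate 2.

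**Figure D1:**
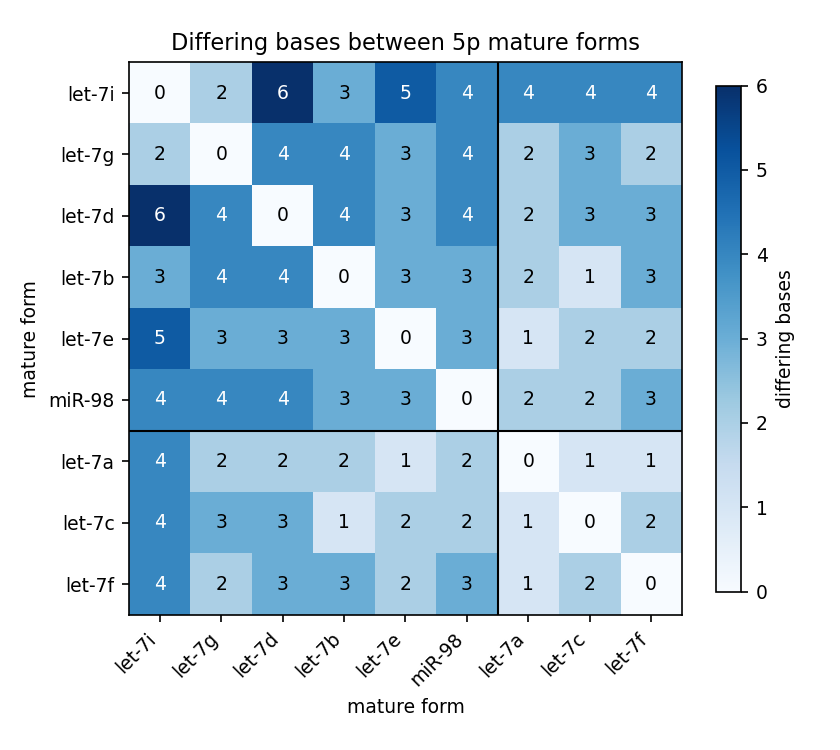
Number of differing bases between the 5p mature forms of the 6 single-copy genes (first 6 rows and columns) and of let-7a, let-7c and let-7f. The single-copy forms differ from each other by 2 to 6 bases and from the duplicated forms by 1 to 4.

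The 6 genes lie on 6 chromosomes (mm10), and 3 lie in introns of protein-coding genes. Mirlet7g is at chr9:106178840-106178927 in Wdr82, a histone methyltransferase subunit gene, Mirlet7e at chr17:17830352-17830444 in Spaca6, a gene of sperm and egg fusion, and Mir98 at chrX:151913214-151913321 in the ubiquitin ligase gene Huwe1, all on the plus strand. The other 3 lie in exons of transcripts annotated as non-coding. Mirlet7i is at chr10:122985640-122985724 in the pseudogene transcript D630033A02Rik and Mirlet7d at chr13:48536012-48536114 in the long non-coding RNA 6720427I07Rik, both on the minus strand. Mirlet7b is at chr15:85707319-85707403, plus strand, in the transcript Lncppara. Another microRNA gene lies within 10 kb on the same strand for 4 members, and Mirlet7g and Mirlet7i stand alone.

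Reads on the own strand of a single microRNA gene numbered 2424441 in replicate 1 and 2770301 in replicate 2, and the limit for a count of 0 (3 counts) was 1.24 and 1.08 CPM. CPM is a gene's count scaled to 1000000 of these reads. The heart muscle microRNAs Mir208a, Mir208b and Mir499 were present in both libraries, with a summed level of 5980 CPM in replicate 1 and 8546 CPM in replicate 2. Mir208a was lower in replicate 1, at 1542 against 5865 CPM, and the other 2 were higher. The liver microRNA Mir122 had 40.4 and 17.3 CPM and the 3 neuronal Mir124a genes had 0 counts. Reads that map to more than 1 of the 3 Mir124a genes would have been counted for no gene. The 0 counts therefore do not show that neuronal RNA was absent. The summed level of the erythroid markers Mir451a, Mir144 and Mir486 was 11488 CPM in replicate 1 and 95604 CPM in replicate 2, with all 3 lower in replicate 1. Most of this sum was Mir451a, at 7816 and 86827 CPM, while Mir486 differed little, at 1710 and 1919 CPM. Of 4 fibroblast markers, summing to 11143 and 2515 CPM, 2 were higher in replicate 1, and the sum was mostly Mir21a, at 10018 and 1810 CPM. Mir199a-1 had 0 counts in replicate 1 and 1 in replicate 2, and Mir199a-2 had 7 and 9. As for Mir124a, reads that map to both genes would have been counted for no gene, so these counts may be too low. Of 3 leukocyte markers, summing to 4190 and 3401 CPM, Mir223 and Mir150 were higher in replicate 1. Mir155 had no settled direction, at 2088 and 2027 CPM (1.03-fold, exact interval 0.992 to 1.07). The part of these differences in the results below was not tested, except that the mean share, log2 ratios and calls without Mir451a in the totals are given. In whole tissue, fewer cells of a type and less RNA per cell cannot be told apart.

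By their levels the single-copy let-7 genes form a high set of 4 genes and a low set of 2. Together they took 32.6% of microRNA counts in replicate 1 (95% exact Clopper-Pearson interval 32.6 to 32.7) and 28.4% in replicate 2 (28.3 to 28.4), with a mean of 30.5% ± 3.00 (SD, n = 2). With reads mapped to several places added to the total the share was 12.3% in replicate 1 and 12.7% in replicate 2, so neither its size nor which library was higher holds beyond reads counted for a single gene. These intervals cover counting error only, since reads are not separate molecules. Mir451a took 0.782% of microRNA counts in replicate 1 and 8.68% in replicate 2, and without it in the totals the members' mean share was 32.0%.

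Mirlet7i, with no microRNA neighbour within 10 kb on its strand, had 252413 counts in replicate 1 and 297186 in replicate 2, or 104112 and 107276 CPM. By reads counted for a single gene it ranked 1 in each library, an order that leaves out reads mapped to several places. Its mean was 105694 ± 2237 CPM (SD, n = 2). The lead was small in replicate 1, where Mir378a ranked 2 at 103585 CPM, against 94209 CPM for Mir378a in replicate 2. Mirlet7g, the intronic gene of Wdr82, had 222699 and 187933 counts, or 91856 CPM in replicate 1 and 67838 CPM in replicate 2. It ranked 3 in replicate 1 and 5 in replicate 2, and its libraries lay further apart than those of Mirlet7i.

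Mirlet7d, the partner of a let-7a and a let-7f gene, had 138035 counts in replicate 1 and 154419 in replicate 2, or 56935 and 55741 CPM. Its mean of 56338 ± 844 CPM (SD, n = 2) had the smallest relative spread of the 6 genes. Mirlet7b, the partner of a let-7c gene, had 153493 and 128604 counts, or 63311 CPM in replicate 1 and 46422 CPM in replicate 2, so that it stood above Mirlet7d in one library and below it in the other.

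Mirlet7e, of the cluster with miR-99b and miR-125a, had 16315 counts in replicate 1 and 12018 in replicate 2, or 6729 and 4338 CPM, and ranked 27 and 31. Mir98, the intronic gene of Huwe1, had 7823 and 5868 counts, or 3227 CPM in replicate 1 and 2118 CPM in replicate 2, and ranked 39 and 45. Both genes of the low set were higher in replicate 1. The 2 sets were drawn from these same levels, and the lowest gene of the high set was 8.46 times Mirlet7e in replicate 1 and 10.7 times in replicate 2.

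**Figure D2:**
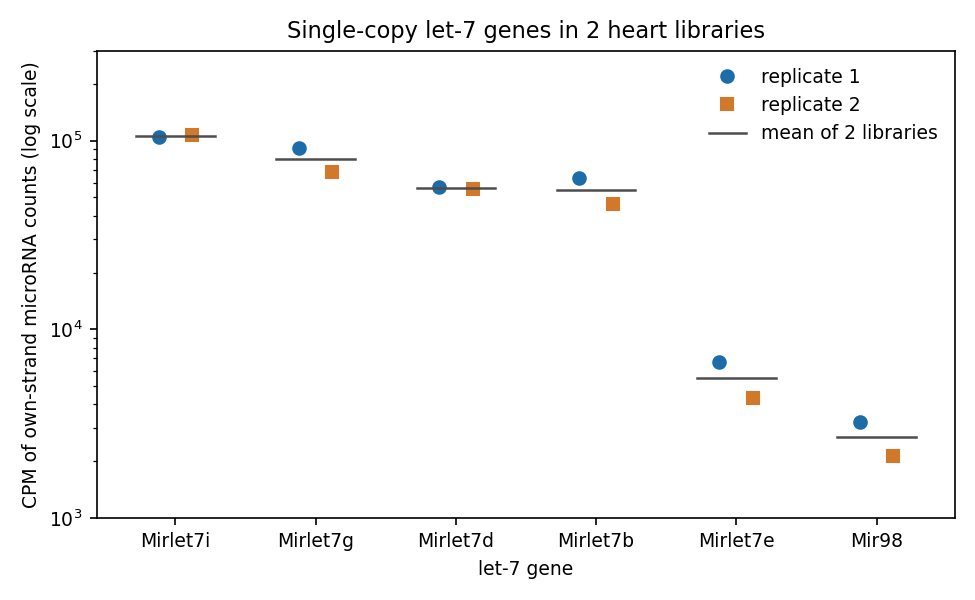
CPM of each gene on a log axis, with a circle for replicate 1, a square for replicate 2 and a line for the mean of the 2 libraries. Mirlet7i, Mirlet7g, Mirlet7d and Mirlet7b lie between 46422 and 107276 CPM, Mirlet7e and Mir98 between 2118 and 6729 CPM.

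The order by mean level was Mirlet7i, Mirlet7g, Mirlet7d, Mirlet7b, Mirlet7e and Mir98. Each mature arm of the 6 genes is annotated at 22 bases, so levels per base of mature RNA have the same order. The counts do not separate the 2 arms of a hairpin. Mirlet7i exceeded Mirlet7g 1.13-fold in replicate 1 (exact interval 1.13 to 1.14) and 1.58-fold in replicate 2 (1.57 to 1.59), and Mirlet7g exceeded Mirlet7d 1.61-fold and 1.22-fold. These steps were larger than the spread, with a difference of means of 25847 and 23509 CPM against a larger SD of 16983 CPM in both cases.

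Mirlet7d and Mirlet7b did not differ beyond their spread. Their means differed by 1471 CPM against an SD of 11942 CPM, and the ratio of Mirlet7d to Mirlet7b was 0.899 in replicate 1 (0.893 to 0.906) and between 1.19 and 1.21 in replicate 2. Per base of annotated hairpin Mirlet7b came before Mirlet7d, since its hairpin has 85 bases and that of Mirlet7d 103. Mirlet7b exceeded Mirlet7e 9.41-fold and 10.7-fold. Mirlet7e exceeded Mir98 2.09-fold in replicate 1 (2.03 to 2.14) and 2.05-fold in replicate 2 (1.99 to 2.11), the steadiest of the 5 steps.

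Shares within the counts of the 6 genes do not depend on how the libraries are scaled. Mirlet7i held 31.9% in replicate 1 and 37.8% in replicate 2, and Mirlet7d 17.5% and 19.6%, so both were lower in replicate 1. Mirlet7g held 28.2% and 23.9% and Mirlet7b 19.4% and 16.4%, both higher in replicate 1. Mirlet7e and Mir98 together held 3.05% in replicate 1 (3.02 to 3.09) and 2.28% in replicate 2 (2.24 to 2.31).

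**Figure D3:**
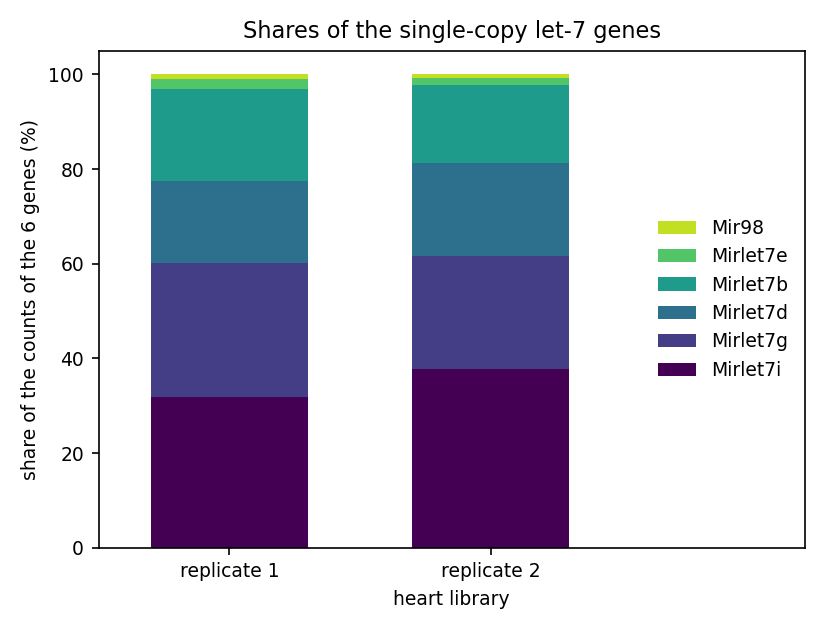
Share of each gene in the summed counts of the 6 genes, stacked to 100% for replicate 1 and replicate 2. Mirlet7i takes 31.9% and 37.8%, and Mirlet7e with Mir98 3.05% and 2.28%.

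For each of the 306 genes with at least 10 counts in both libraries, an exact binomial test (two-sided) asked whether its counts split as the library totals do, and p was adjusted by Benjamini-Hochberg over these genes. Such a test compares 2 libraries beyond counting error and no conditions. All 6 members passed at an adjusted p under 0.05, as did 61.1% of the genes tested, and at counts this high small differences pass. With a fold of at least 1.5 as well, 2 members were called, both higher in replicate 1, where 36.6% of genes tested were called in either direction and 25.5% higher in replicate 1.

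Mirlet7e was 1.55-fold higher in replicate 1 (exact interval 1.51 to 1.59, adjusted p = 4.24e-295 by the exact binomial test) and Mir98 1.52-fold higher (1.47 to 1.58, adjusted p = 6.16e-132 by the same exact test). Both lie just past the 1.5-fold limit, and neither was called with TMM factors (log2 ratio 0.46 and 0.43), with DESeq2 size factors (0.44 and 0.41) or with Mir451a left out of the totals (0.51 and 0.49). Mirlet7b and Mirlet7g were 1.36-fold (1.35 to 1.37) and 1.35-fold (1.35 to 1.36) higher in replicate 1, under the limit, with p too small for the calculation to hold.

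With library totals as the scale, Mirlet7d and Mirlet7i lay nearest to equality. Mirlet7d was 1.02-fold higher in replicate 1 (1.01 to 1.03, adjusted p = 3.03e-08 by the exact binomial test), but its log2 ratio of 0.03 became -0.14 with TMM factors, -0.16 with DESeq2 size factors and -0.09 without Mir451a, so it has no settled direction. Mirlet7i stood at 0.971 of its replicate 2 level in replicate 1 (0.965 to 0.976, adjusted p = 8.82e-28 by the exact binomial test), and its log2 ratio of -0.04 became -0.22 with TMM factors, -0.24 with DESeq2 size factors and -0.16 without Mir451a. With DESeq2 size factors Mirlet7g, at 0.24, was as near to equality as Mirlet7i. On the scale of library totals 3.27% and 4.25% of the genes tested had a smaller absolute log2 ratio than Mirlet7d and Mirlet7i.

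The median log2 ratio of replicate 1 over replicate 2 was 0.44 over the 6 members and 0.19 over all 306 genes, a shift that TMM factors moved to 0.27 for the members and 0.02 for all genes. The median absolute log2 ratio was 0.44 for the members, 0.46 for all genes tested and 0.53 for the 43 genes at or above the level of Mir98, of which 20 were called. Over all genes, 78 were called higher and 34 lower in replicate 1, or 49 and 47 with TMM factors and 48 and 48 with DESeq2 size factors.

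**Figure D4:**
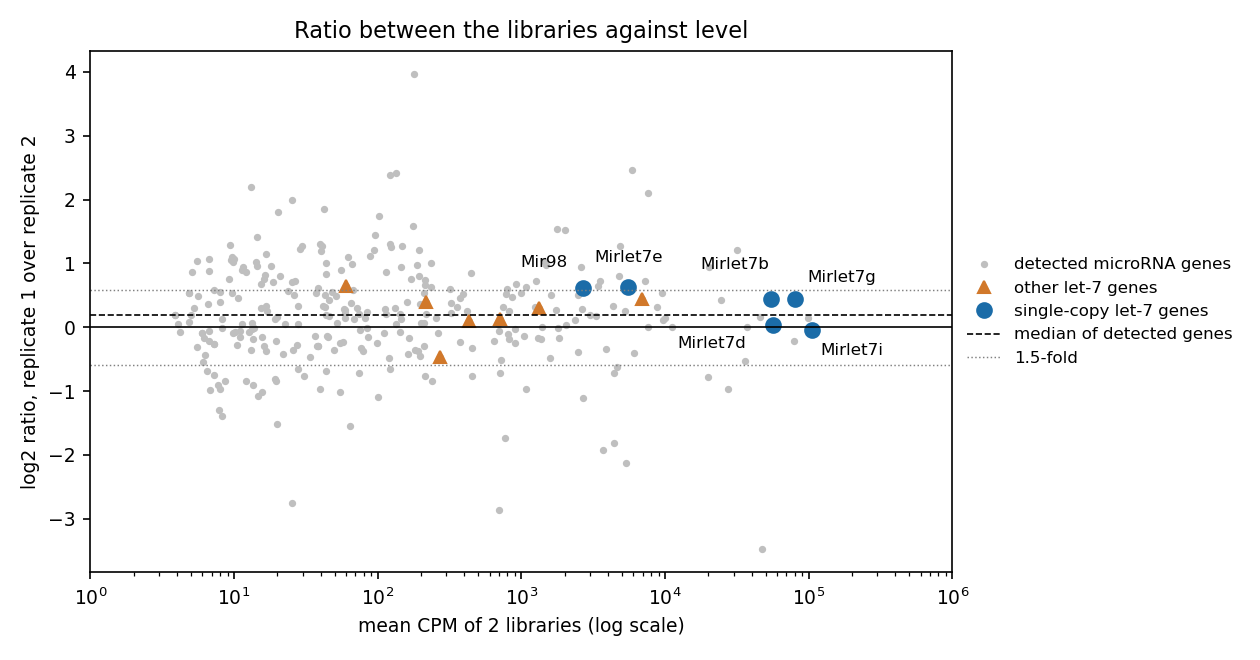
log2 ratio of replicate 1 over replicate 2 against mean CPM (log axis) for the 306 genes tested, with circles for the 6 single-copy let-7 genes and triangles for the other let-7 genes. Mirlet7i and Mirlet7d lie at -0.04 and 0.03, and Mirlet7e and Mir98 at 0.63 and 0.61, at the dotted 1.5-fold line.

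The 4 clustered members were set against their neighbours on the same strand within each library. Mirlet7e lies 94 bases after Mir99b and 367 bases before Mir125a, the mammalian relative of the worm timing microRNA lin-4. Mir99b had 4857 counts in replicate 1 and 24241 in replicate 2, and Mir125a 14623 and 9606. Mirlet7e was thus 3.36 times Mir99b in replicate 1 (exact interval 3.25 to 3.47) but 0.496 of it in replicate 2 (0.485 to 0.507), while its ratio to Mir125a was between 1.09 and 1.14 in replicate 1 and between 1.22 and 1.29 in replicate 2. Genes of this cluster therefore did not keep a fixed ratio: Mirlet7e and Mir125a were 1.55-fold and 1.74-fold higher in replicate 1 and Mir99b stood at 0.229 of its replicate 2 level.

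The other 3 clusters hold a member beside let-7 genes with a copy elsewhere. Reads of these let-7 genes can map to more than 1 place and were then counted for no gene, so their counts may be too low. Whether short reads of the members, within stretches shared with other hairpins, were lost or misplaced was not tested. Mirlet7c-2, 621 bases from Mirlet7b, had 3561 counts in replicate 1 and 3302 in replicate 2, and Mirlet7b was 43.1 and 38.9 times as high. Mirlet7a-1 and Mirlet7f-1, which share the transcript of Mirlet7d, had 1794 and 594 counts in replicate 1 and 1868 and 516 in replicate 2. Mirlet7f-2, 785 bases from Mir98, was the exception, with 19182 and 16142 counts, so that Mir98 stood at 0.408 of it in replicate 1 (0.397 to 0.419) and 0.364 in replicate 2 (0.353 to 0.375).

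**Figure D5:**
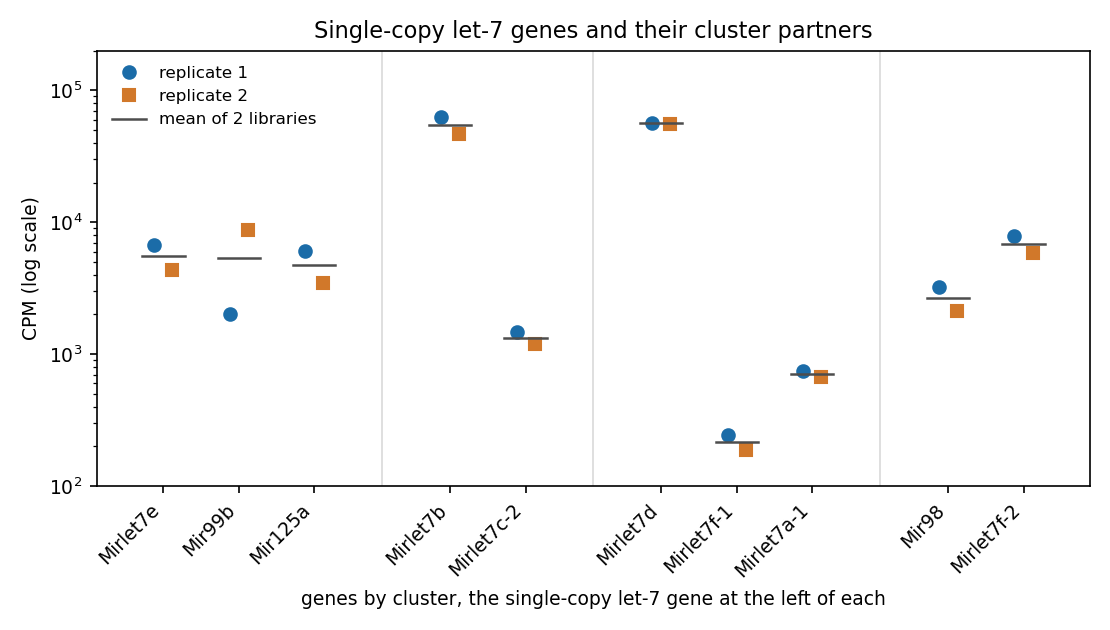
CPM (log axis) of each clustered single-copy gene, at the left of its panel, and of its partners, with circles for replicate 1, squares for replicate 2 and lines for the mean. Mir99b is the gene whose libraries lie farthest apart, at 2003 and 8750 CPM.

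Against the rest of the family, the 6 single-copy genes held 96.7% of let-7 counts in replicate 1 and 97.0% in replicate 2. The 6 genes for let-7a, let-7c and let-7f held 1.10% and 0.861% of all microRNA counts, and the single-copy genes together were 29.5 and 32.9 times as high. Each of the 3 duplicated sequences occurs at 2 loci, and reads that mapped to several places made up 49.5% of replicate 1 and 42.7% of replicate 2, so this ratio describes countable reads and not the amounts of RNA. Of these 6 genes 5 passed the binomial test, 4 higher and 1 lower in replicate 1, and none was called with the 1.5-fold limit. Mirlet7a-2 was called lower with TMM or DESeq2 size factors.

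Reads of the members lay in the column taken as the own strand, which was itself identified from its values. Over both libraries the members had 1576806 own-strand and 15 opposite-strand counts, and those 15 were at Mirlet7b. Mirlet7e overlaps Gm25927, a microRNA gene annotated in the other direction that had 0 own-strand counts, and in the column that ignores strand both genes had 0 counts. The level of Mirlet7e therefore rests on the strand-specific column, and the other 5 members overlap no annotated microRNA gene.

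The genes nearest in level were found by the distance of log2 CPM over the 2 libraries among detected genes outside the let-7 family. With only 2 libraries this likeness is one of level and a single ratio. Mirlet7i was nearest to Mir378a (distance 0.19) and Mirlet7g to Mir126a (0.46), an endothelial microRNA. Mirlet7b and Mirlet7d were both nearest to Mir143 (0.39 and 0.42), a smooth muscle microRNA. Mirlet7e was nearest to Mir30e (0.27) and then to its cluster partner Mir125a (0.36), and Mir98 to Mir15a (0.15) and Mir130a (0.23).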

How the data were processed

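The authors deposited, for each of 2 heart libraries, raw counts of reads per microRNA gene with no normalization. Per the file headers, here the text deposited beside the tables, reads were placed on mm10 and counted over GENCODE M21; the aligner and counter were not given in the sources used here. A table has no header; its 3 count columns were identified from their values as either, own and opposite strand. Its first 4 lines name no gene and were left out: reads mapped to several places (49.5% of reads in replicate 1 and 42.7% in replicate 2), unmapped (16.7% and 17.5%), in no feature (3.75% and 5.16%) and ambiguous (0 on the own strand). Symbols and positions came from M21 and sequences from RefSeq (GRCm38.p6).

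CPM were computed from own-strand counts over their own sum. Both libraries form 1 group, so edgeR's quasi-likelihood test and DESeq2's test had no residual degrees of freedom, and the exact binomial test was used per gene, with Benjamini-Hochberg adjustment over 306 genes. It was tested on simulated data with counting error only, which cannot show how it behaves where libraries vary beyond that. p-values measure counting error between 2 libraries only, which may be 2 animals or 2 preparations. The named genes were the members, the other let-7 genes, Mir202, the miR-99, miR-100 and miR-125 genes, neighbours within 10 kb and the 2 genes nearest in level to each member; Mir1961 and Mir3962 were added after the sequence search. Members, lists and rules were chosen with earlier results of these data known. Scaling factors came from DESeq2 1.42.0 and edgeR 4.0.16 (R 4.3.3). Tests used scipy 1.17.1 and tables pandas 2.3.3 in Python 3.11.15. Alternatives covered scaling, count filters, fold limits, strand, hairpin length and left-out replicates. The comparison of precursor loops is not reported here.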

Additional observations from a re-analysis of the deposited data

Results flagged for a closer look

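Signals outside the own-strand counts exceeded 3 reads, the limit set for a count of 0. Mirlet7b had 12 counts on the opposite strand in replicate 2, against 3 in replicate 1 and 0 for the other 5 members in both. Reads that mapped to several places, which were counted for no gene, numbered 3992614 in replicate 1 and 3410568 in replicate 2.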

How the results depend on the processing

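No paired analysis was possible because both libraries belong to 1 group. The 6 members' share of 30.5% became 40.0% with reads of either strand, 26.7% with counts per hairpin base and 32.0% without Mir451a in the totals. The rise to 40.0% came with a smaller total. In the column that ignores strand, 518508 reads in replicate 1 and 806523 in replicate 2 were set aside as ambiguous. Its microRNA counts summed to 1906012 and 1963878. When the total included multimapping reads the share was 12.5%, then lower in replicate 1 (12.3% against 12.7%). Without one replicate it ran from 28.4% to 32.6%. The number of members called higher in replicate 1, 2 as reported, was 0 with TMM factors, DESeq2 size factors, either-strand reads, Mir451a left out or a 2-fold limit, and 4 with a fold limit below 1.5. With the limit below 1.5, 152 of the 306 genes tested were called, 104 higher and 48 lower in replicate 1. With the 2-fold limit 55 genes were called in all, 39 higher and 16 lower. The log2 ratio of Mirlet7d, 0.03, turned to -0.14 with TMM factors, -0.16 with DESeq2 size factors, -0.12 with either-strand reads and -0.09 without Mir451a. The cause was not tested. Depth did not limit the members, whose lowest level was 2118 CPM. With either-strand reads Mirlet7e had a count of 0 and could not be tested. The count filters changed no call of a member.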

Other observations

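let-7 genes of the mouse form 3 clusters with a miR-99 or miR-100 gene upstream and a miR-125 gene downstream, and the libraries differed in the same order within each. Mir125b-2 lies 46522 bases from Mirlet7c-1 and Mir125b-1 45114 bases from Mirlet7a-2, beyond the 10 kb used for neighbours. Folds are of replicate 1 over replicate 2, with exact intervals. In the cluster of Mirlet7e they were 1.74 for Mir125a (1.70 to 1.78), 1.55 for Mirlet7e and 0.229 for Mir99b (0.222 to 0.236). In that of Mirlet7c-1 they were 1.94 for Mir125b-2 (1.67 to 2.26), 1.06 for Mirlet7c-1 (0.976 to 1.16) and 0.511 for Mir99a (0.505 to 0.516). In that of Mirlet7a-2 they were 1.97 for Mir125b-1 (1.73 to 2.26), 0.726 for Mirlet7a-2 (0.652 to 0.808) and 0.610 for Mir100 (0.594 to 0.627). All 3 miR-125 genes were called higher and all 3 of miR-99 and miR-100 lower in replicate 1, and so they were with TMM and DESeq2 size factors. Among all 306 genes tested, 78 were called higher and 34 lower. These counts were 49 and 47 with TMM factors and 48 and 48 with DESeq2 size factors. The pattern was noticed in these data, rests on 2 libraries, and was not tested; Mirlet7a-2, Mirlet7c-1 and the Mir125b genes have copies elsewhere.

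Of the loci with a seed like that of let-7, Mirlet7j had 177 counts in replicate 1 and 130 in replicate 2, Mirlet7k 1 and 0, and Mir202 and Mir1961 0 in both. G8U, the difference of let-7j from let-7i, lies at the last base of the seed.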
